A study of Mus musculus with 20 samples.

Results

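The kidney sets how much phosphate the body keeps. Sodium-phosphate cotransporters in the brush border of the proximal tubule recover filtered phosphate, and the hormones PTH and FGF23 withdraw them from the membrane. FGF23 needs Klotho as a coreceptor, and the same tubule also makes and destroys active vitamin D, so phosphate recovery, Klotho and vitamin D turnover form one endocrine loop.

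The data on this loop were the RNA levels of 10 genes, taken by gene symbol from a table of 54532 genes, of which 15354 had enough reads to be tested. They were the phosphate transporters Slc34a1, Slc34a2, Slc34a3, Slc20a1 and Slc20a2, the transporter scaffold Pdzk1, the coreceptor Kl (Klotho), the vitamin D receptor Vdr, and the vitamin D hydroxylases Cyp27b1 and Cyp24a1. All 10 were tested. The rule that took them used gene symbols and no measured value, although earlier results of these data were known when they were chosen.

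RNA was sequenced from 10 kidney tumors and from 10 normal kidney regions of the same C57BL/6 mice. The mice were LSL-Cas9/+; Pax8 Cre/+, which means that a Cas9 gene was switched on by Cre recombinase in cells with Pax8 promoter activity, a promoter used in most tubule epithelium. An adeno-associated virus (AAV) without Cre of its own carried sgRNAs against Vhl, Pbrm1, Keap1 and Tsc1 and was injected directly into the kidney of young adult animals. The normal kidneys therefore had the same alleles and came from injected mice, not from untreated ones, and the labels give neither sex nor age for a library.

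Each library held between 14737516 and 26679704 counted reads, and levels are given as CPM, read counts relative to the size of the library, after TMM scaling, a correction for library composition. Levels of different genes were ordered only as CPM per kb of gene length, and ratios of one gene to another, not scaled for length, were compared only between groups. The tissue was whole and unsorted, so fewer cells of a type and less RNA per cell cannot be told apart. RNA of the targeted genes averaged 18.4 CPM in tumors against 25.8 CPM in normal kidneys for Vhl, 33.4 and 50.9 CPM for Tsc1, 53.7 and 65.2 CPM for Pbrm1, and 80.2 and 45.0 CPM for Keap1, and a read count does not measure whether a gene was cut. Markers of the loop of Henle summed to 3678 to 9404 CPM in normal kidneys and 21.3 to 161 CPM in tumors, whereas proximal tubule markers spanned 2066 to 9084 CPM in normal kidneys and 1209 to 9213 CPM in tumors. The proximal tubule sums hide opposite changes. Gatm had 254 to 4882 CPM in tumors against 30.3 to 1217 CPM in normal kidneys, and Miox 12.6 to 204 against 47.6 to 1863 CPM. Of 11 tested markers of this list, 5 were lower in tumors and 1 was higher by the edgeR test given below.

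Some libraries stood apart within their group. In normal kidneys 5, 7 and 8, the tubule injury markers Havcr1, Lcn2, Vcam1, Krt20 and Spp1 summed to 28183 to 49349 CPM, against 2052 to 4157 CPM in the other 7 normal kidneys, and proximal tubule markers to 2066 to 3770 CPM, against 6258 to 9084 CPM. Spp1 made up most of the injury sum, at 26231 to 44332 CPM in these 3. Lcn2, at 1765 to 3302 CPM against at most 232 CPM in the others, Havcr1 and Krt20 were also higher in these 3, whereas Vcam1, at 21.4 to 34.5 CPM against 12.8 to 35.4 CPM, did not set them apart. In tumors 7, 8 and 9, proximal tubule markers summed to 1209 to 4255 CPM, against 5283 to 9213 CPM in the other 7 tumors. Fibroblast markers in tumor 7 reached 7928 CPM, and were at most 544 CPM in any other tumor. These sets were seen in the data and are not groups of the study, so the values given for them below are descriptions. Where a test left out normal kidneys 5, 7 and 8, that choice was made after seeing the data.

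Of the 10 genes, Slc20a1 was higher in tumors and Slc34a3, Kl, Vdr and Cyp24a1 were lower by edgeR's quasi-likelihood test at an adjusted p under 0.05 (Benjamini-Hochberg over all 15354 genes). The other 5 did not pass. Over all genes tested, 23.6% were called higher and 23.8% lower, 47.5% in either direction, so a called gene was common in these data and the count of 1 higher and 4 lower is not by itself particular to the 10. Kl was the one gene of the 10 with every tumor below every normal kidney, a pattern met by 4.74% of the genes tested, and none had every tumor above every normal kidney, as 5.87% of the genes tested had. The plot of the 10 genes by library shows each of these patterns.

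**Figure D1:**
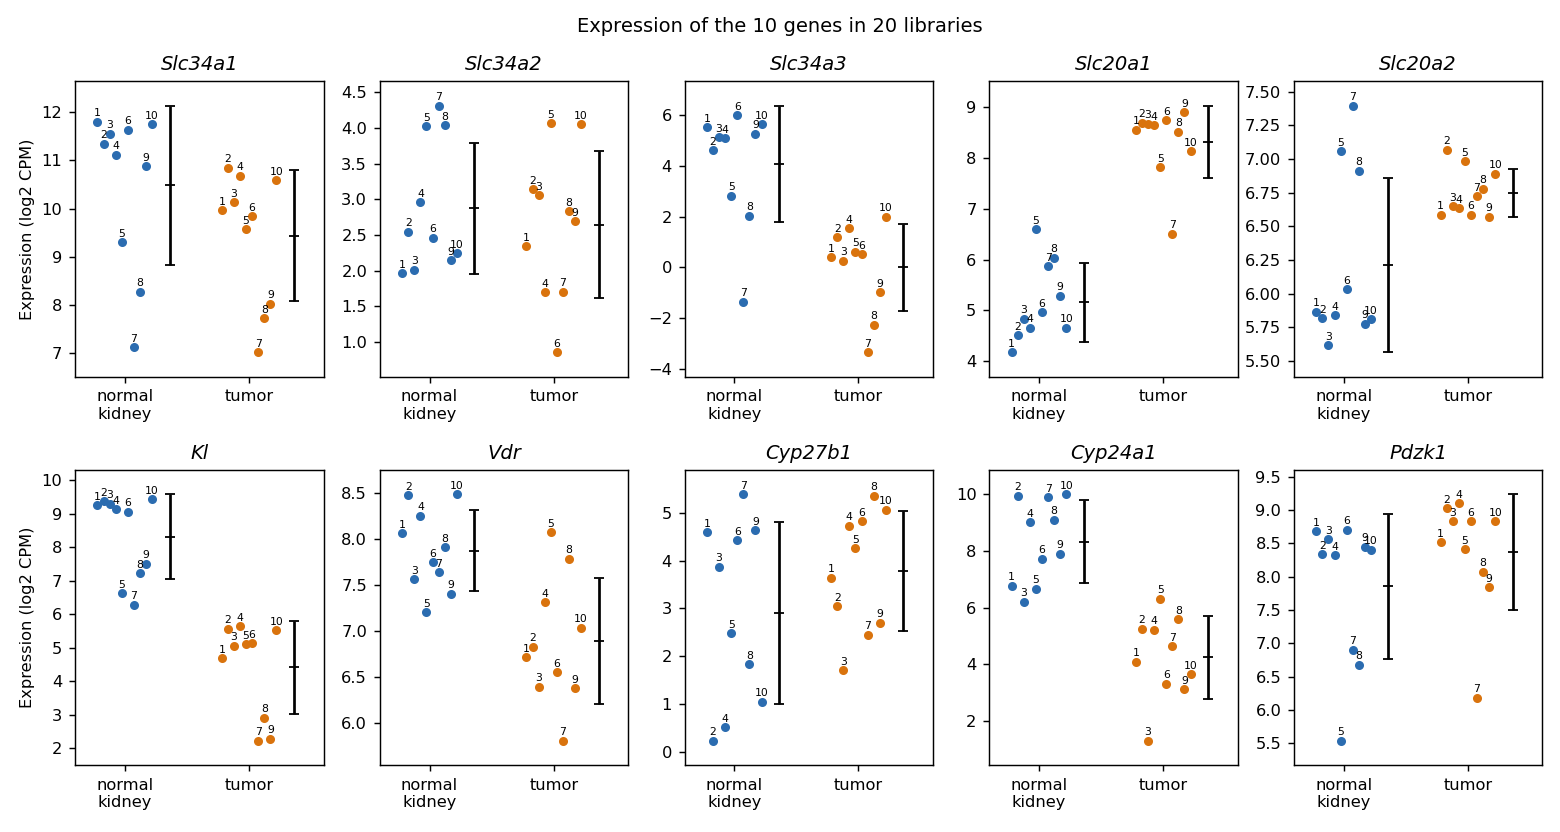
Expression of each of the 10 genes in log2 CPM (vertical axes, each with its own range) in normal kidneys (blue) and tumors (orange). Each point is 1 library with its replicate number, and the black bar is the mean ± SD of 10 libraries. Kl shows 2 separate ranges, Slc20a1 overlaps through tumor 7 and normal kidney 5, and normal kidneys 5, 7 and 8 lie low for Slc34a1, Slc34a3, Kl and Pdzk1.

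Slc34a1 (NaPi-IIa), on chr13:55398187-55415592 of GRCm38, is the main phosphate transporter of the mouse proximal tubule. Its level was lowest at 140 CPM, median 2417 CPM and highest at 3582 CPM in normal kidneys, and lowest at 130 CPM, median 959 CPM and highest at 1845 CPM in tumors. Normal kidneys 5, 7 and 8 had 140 to 633 CPM and all other normal kidneys at least 1885 CPM, above the highest tumor, so the overlap of the groups came through these 3 libraries. The mean of 945 ± 615 CPM in tumors compared with 2102 ± 1313 CPM in normal kidneys (SD, n = 10 per group), a log2 fold change of −1.15 (SE 0.535, 95% interval −2.27 to −0.04), which missed the threshold with an adjusted p of 0.0813 in edgeR's quasi-likelihood test. Over 29 alternative settings the edgeR, DESeq2 or limma adjusted p ran from 0.00224 to 0.129 and passed in 7. With all 20 libraries kept, the adjusted p was 0.0361 by DESeq2, 0.00224 by limma-voom with quality weights and 0.0467 by edgeR with total scaling. The replicate block, given at the end, also kept all 20 and passed. Leaving out normal kidney 7 alone gave 0.031 and normal kidney 8 alone 0.0467 in edgeR. Another of the 7 left out normal kidneys 5, 7 and 8, a choice made after seeing the data, and gave −1.59 with an adjusted p of 0.00424 in edgeR. By the ranks of the deviations from the group means over the 20 libraries, the genes most like Slc34a1 among 13455 candidates included Abcc6 (Spearman's rho 0.94), Xylb (0.93), Scrn3 (0.92) and Slc33a1 (0.91), a description to which those libraries also contribute.

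Slc34a3 (NaPi-IIc), on chr2:25228898-25234364, is the second brush border transporter of this family. Normal kidneys had from 0.292 to 62.9 CPM with a median of 34.2 CPM, and tumors from 0 to 3.89 CPM with a median of 1.29 CPM. Every tumor was below the 7 normal kidneys with at least 24.2 CPM, and normal kidney 7, at 0.292 CPM, lay below most tumors. The mean fell 20.6-fold, from 30.0 ± 20.9 CPM in normal kidneys to 1.45 ± 1.22 CPM in tumors (SD, n = 10 per group, log2 fold change −4.36, SE 0.742, edgeR adjusted p = 5.59e-05). Tumor 7 had no read from this gene, and tumors 8 and 9 had at most 0.408 CPM.

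Both brush border transporters were lower on average in tumors, Slc34a1 without passing the test, and the ratio of one to the other was compared directly. The log2 ratio of Slc34a1 to Slc34a3 was 6.41 ± 0.81 in normal kidneys and 9.44 ± 0.54 in tumors (SD, n = 10 per group). With a prior count of 2 it was higher in every tumor than in any normal kidney, by 3.03 on average (two-sided permutation test, 100000 resamples, p = 2e-05, the smallest these resamples can give). The ratio does not depend on library scaling, although at the low counts of Slc34a3 in tumors and in normal kidney 7 it depends on the prior count of 2. Normal kidney 7 had the highest ratio among normal kidneys, 8.48, and tumor 10 the lowest among tumors, 8.59. Their reads without the prior count were 3823 to 8 in normal kidney 7 and 35608 to 90 in tumor 10. These put them in the opposite order, so the full separation of the groups rests on the prior count.

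Slc34a2 (NaPi-IIb), best known from lung and intestine, had the lowest mean of the 10 per length in normal kidneys, 1.75 CPM per kb. Its order against Cyp27b1, the next lowest mean, is not resolved. Its level ran from 3.79 to 19.8 CPM, with a median of 5.58 CPM, in normal kidneys and from 1.72 to 16.7 CPM, with a median of 6.70 CPM, in tumors. The groups overlapped throughout. Means were 8.78 ± 6.15 and 7.64 ± 5.22 CPM (SD, n = 10 per group), with a log2 fold change of −0.20 (95% interval −1.06 to 0.66) and an edgeR adjusted p of 0.711. Its 3 highest normal kidneys were 5, 7 and 8, at 16.2 to 19.8 CPM against 3.79 to 7.66 CPM in the others, and without them the fitted value was 0.59 in the other direction, which did not pass the edgeR test either.

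Slc20a1 (PiT-1), on chr2:129198764-129211616, is a phosphate transporter of a separate family that most cells use for their own supply. Its level was lowest at 18.0 CPM, median 29.8 CPM and highest at 97.2 CPM in normal kidneys, and lowest at 91.0 CPM, median 390 CPM and highest at 480 CPM in tumors. The overlap was 1 pair of libraries, tumor 7 at 91.0 CPM and normal kidney 5 at 97.2 CPM, and the other 9 tumors had at least 226 CPM. The mean rose 8.46-fold, from 41.1 ± 25.1 to 348 ± 116 CPM (SD, n = 10 per group, log2 fold change 3.08, SE 0.328, edgeR adjusted p = 1.27e-07). Among normal kidneys it was highest in 5, 7 and 8, at 58.4 to 97.2 CPM against 18.0 to 38.9 CPM in the others, the reverse of Slc34a1. A noncoding gene on the opposite strand, 9830144P21Rik, overlaps 5659 bases of Slc20a1 and had 6.03 CPM in tumors against 1.93 CPM in normal kidneys. Whether reads were counted by strand is not given in the sources used here.

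Slc20a2 (PiT-2), on chr8:22476788-22569612, is the second member of that family. Normal kidneys had from 49.0 to 168 CPM with a median of 57.7 CPM, and tumors from 95.0 to 134 CPM with a median of 103 CPM. All 10 tumors lay above the highest of the 7 normal kidneys other than 5, 7 and 8, which reached 65.3 CPM, and within or below the 120 to 168 CPM of those 3. The means of 108 ± 13.9 and 81.8 ± 42.4 CPM (SD, n = 10 per group) gave a log2 fold change of 0.40 (95% interval −0.04 to 0.84), with an edgeR adjusted p of 0.128. It passed in 4 of 29 alternative settings. With all 20 libraries kept, limma-voom with quality weights gave 0.86 and an adjusted p of 9.99e-07, and the replicate block, given at the end, also passed. Without normal kidneys 5, 7 and 8 the log2 fold change was 0.94 and the edgeR adjusted p 1.77e-07, and without normal kidney 7 alone it was 0.58 and 0.0114. The part of the injury markers in these values was not tested.

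**Figure D2:**
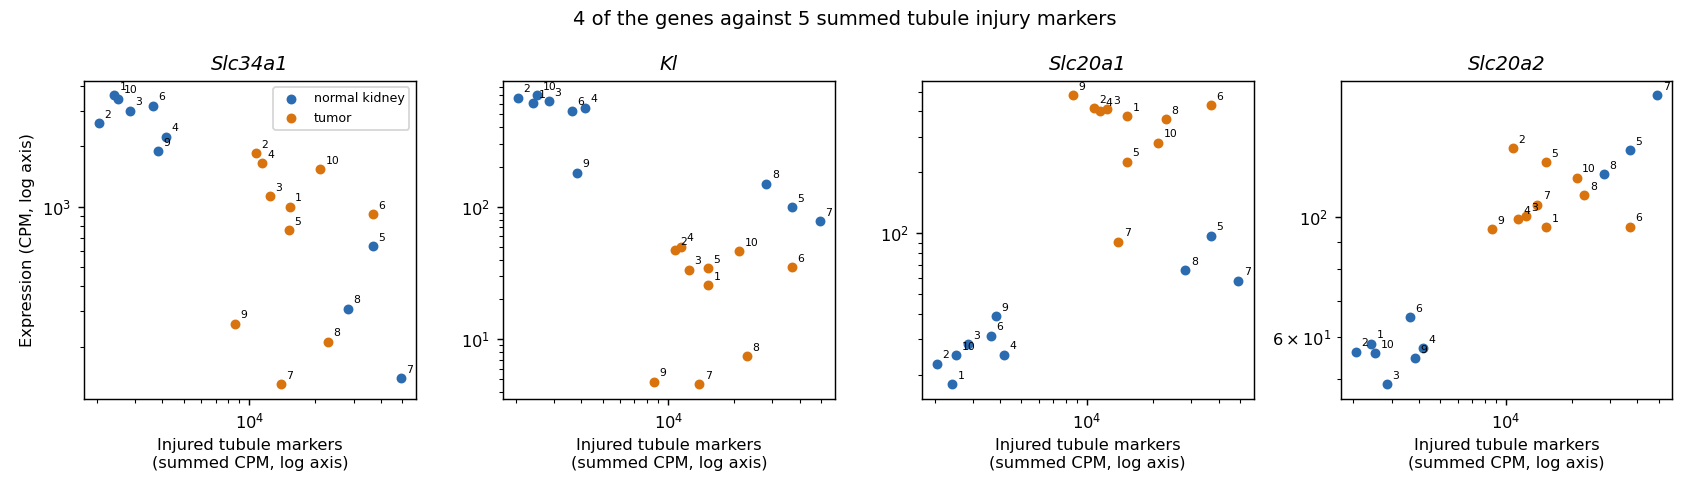
Levels of Slc34a1, Kl, Slc20a1 and Slc20a2 (vertical axes, CPM, log scale) against the sum of 5 tubule injury markers (horizontal axes, CPM, log scale) in normal kidneys (blue) and tumors (orange), with replicate numbers. Normal kidneys 5, 7 and 8, at 28183 to 49349 CPM of injury markers, lie to the right of the other 7, lower for Slc34a1 and Kl and higher for Slc20a1 and Slc20a2.

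Promoter sequences of the transporters are shown for Slc34a1 and Slc20a1, which carried most of the transporter RNA in tumors and of which only Slc20a1 was called, and for Kl, the gene whose groups were fully separate. The windows are the RefSeq sequences from 250 bases before to 50 bases after a transcript start in GRCm38.p6, all 3 on the plus strand, and capitals mark the letters CACGTG of an E-box, which basic helix-loop-helix factors read, and the letters TATAAA of a core promoter element. The Slc20a1 window, the first of 2 for this gene, is chr2:129198523-129198822, that of Slc34a1 is chr13:55399398-55399697, where this start lies 1461 bases inside the gene as counted, and that of Kl is chr5:150952357-150952656.
Slc20a1: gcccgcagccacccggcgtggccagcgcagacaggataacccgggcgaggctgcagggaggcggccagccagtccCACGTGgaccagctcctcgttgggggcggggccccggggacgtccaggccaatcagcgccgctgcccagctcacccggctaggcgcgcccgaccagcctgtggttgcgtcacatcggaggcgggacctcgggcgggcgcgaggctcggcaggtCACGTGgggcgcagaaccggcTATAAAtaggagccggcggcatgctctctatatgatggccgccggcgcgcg
Slc34a1: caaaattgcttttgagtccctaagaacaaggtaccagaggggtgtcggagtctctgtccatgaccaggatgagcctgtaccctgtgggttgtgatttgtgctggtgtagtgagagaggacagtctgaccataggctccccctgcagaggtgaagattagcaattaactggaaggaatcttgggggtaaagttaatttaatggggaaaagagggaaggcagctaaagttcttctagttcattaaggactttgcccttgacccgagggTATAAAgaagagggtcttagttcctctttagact
Kl: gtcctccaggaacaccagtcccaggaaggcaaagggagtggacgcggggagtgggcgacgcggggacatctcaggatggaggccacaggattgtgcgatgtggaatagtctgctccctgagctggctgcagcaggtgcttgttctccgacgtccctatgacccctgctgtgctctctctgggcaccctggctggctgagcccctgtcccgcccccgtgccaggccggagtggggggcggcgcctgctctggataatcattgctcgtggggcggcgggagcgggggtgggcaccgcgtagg

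The Slc20a1 window held CACGTG at 175 and at 22 bases before the start, where each copy also contains ACGTG on both strands and the nearer one shares 2 bases with an AGGTCA. At least 1 CACGTG was present in 7.15% of the 32851 windows of this length, and at least 2 in 0.594%. TATAAA, found in 13.6% of windows, began 1 base before the RefSeq start in Slc20a1 and 16 bases after it in Slc34a1, which held none of the other motifs. The Kl window held none of the motifs searched on both strands, which were the E-box, the HIF cores ACGTG and GCGTG, the antioxidant response element core, the HNF4 motif, the HNF1 motif, the nuclear receptor half-site AGGTCA and the TATA box. GC content was 73.0% in the Slc20a1 window, 67.3% in the Kl window and 46.7% in the Slc34a1 window, against a median of 52.7%. RefSeq windows were found for 8 of the 10 genes, and a match is a description of letters, not of a factor's binding.

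Shares of the 5 transporters in their summed counts per kb put these changes on a common scale. Slc34a1 held 84.5 ± 18.4% of the sum in normal kidneys and 64.0 ± 18.4% in tumors (SD, n = 10 per group), a difference of −20.5 percentage points (two-sided permutation test, 100000 resamples, p = 0.0247). The difference was −17.5 points with a permutation p of 0.0682 when normal kidney 9, which had the lowest scaling factor, and tumor 7 were both left out. Slc20a1 held 4.15 ± 5.51% in normal kidneys and 26.4 ± 14.5% in tumors (SD, n = 10 per group). In tumors 8 and 9 Slc20a1 had the largest share of the 5, up to 54.3%, and Slc34a1 had as little as 34.7%. Slc20a2 held 7.91 ± 12.1% in normal kidneys and 8.77 ± 7.28% in tumors (SD, n = 10 per group), with its highest share, 37.9%, in normal kidney 7. The 5 together summed to 483 ± 277 CPM per kb in normal kidneys and 283 ± 140 CPM per kb in tumors (SD, n = 10 per group), a difference that was not tested.

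**Figure D3:**
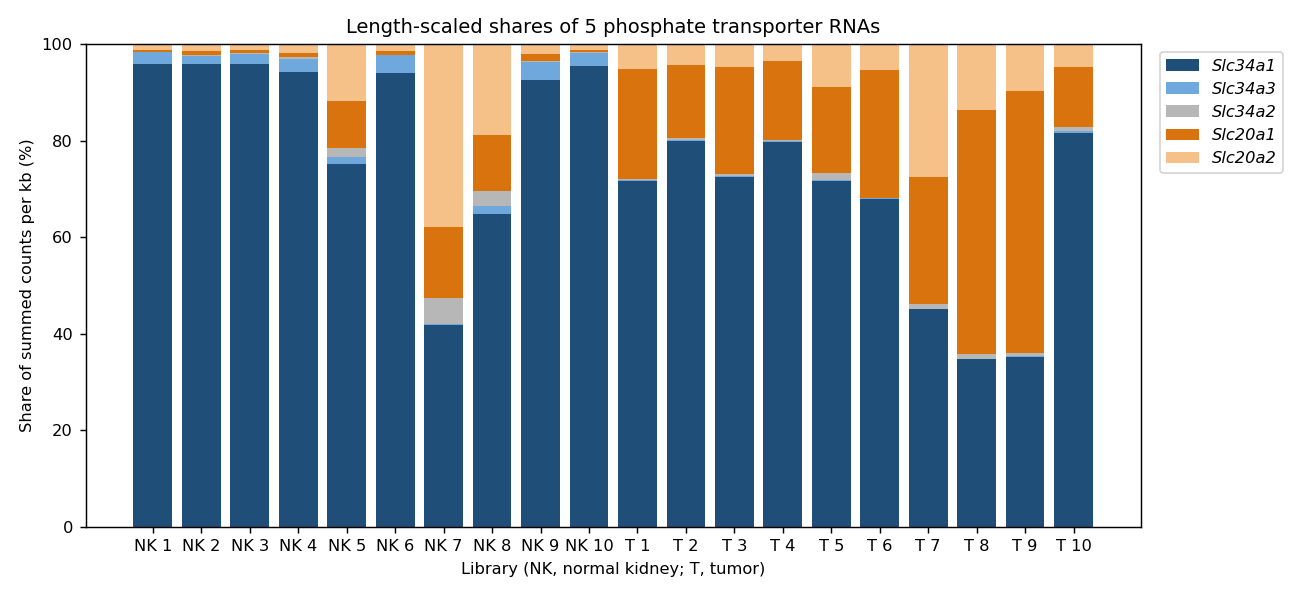
Share of each of 5 phosphate transporters in their summed counts per kb of gene length (vertical axis, percent) in each library (horizontal axis; NK, normal kidney; T, tumor). Slc34a1 takes most of the bar in most normal kidneys, and the orange Slc20a1 share, at most 14.6% in normal kidneys, is 12.5% to 54.3% in tumors.

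Pdzk1, on chr3:96829284-96870926, encodes a PDZ scaffold that binds Slc34a1 at the brush border. Normal kidneys had from 46.4 to 417 CPM with a median of 331 CPM, and tumors from 72.6 to 549 CPM with a median of 412 CPM. In 5 tumors Pdzk1 was above every normal kidney, while normal kidneys 5, 7 and 8, at 46.4 to 120 CPM, and tumor 7 were lowest. Means were 281 ± 137 and 372 ± 148 CPM (SD, n = 10 per group), a log2 fold change of 0.41 (95% interval −0.33 to 1.15, edgeR adjusted p = 0.363). Without normal kidneys 5, 7 and 8, a choice made after seeing the data, it was 0.038 (edgeR adjusted p = 0.918). Gpr89, on the opposite strand, overlaps 2646 bases of Pdzk1 and had 31.5 CPM in tumors against 34.8 CPM in normal kidneys.

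Kl, on chr5:150952607-150993817, encodes Klotho, the coreceptor that lets FGF23 act on FGF receptors in the tubule, and a shed form that circulates. Its level was lowest at 78.2 CPM, median 548 CPM and highest at 695 CPM in normal kidneys, and lowest at 4.57 CPM, median 33.9 CPM and highest at 50.0 CPM in tumors. Every tumor lay below every normal kidney, including normal kidneys 5, 7 and 8 at 78.2 to 149 CPM. Normal kidney 9 was also low, at 182 CPM, although its injury markers summed to 3823 CPM, and the remaining normal kidneys had at least 535 CPM. The mean fell 14.6-fold, from 421 ± 258 to 28.8 ± 17.7 CPM (SD, n = 10 per group, log2 fold change −3.87, SE 0.540, edgeR adjusted p = 5.03e-06). Tumors 7, 8 and 9 were lower again, at 4.57 to 7.41 CPM against 25.6 to 50.0 CPM in the other tumors.

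Kl is made in the distal convoluted tubule as well as in the proximal tubule. All 4 tested markers of the distal convoluted tubule, of 5 listed, were lower in tumors by the edgeR test, and the list summed to 11.1 to 44.9 CPM in tumors and 347 to 1856 CPM in normal kidneys. In normal kidneys 5, 7, 8 and 9, which were low for Kl, it summed to 347 to 1067 CPM, with 383 CPM in normal kidney 9. The other normal kidneys had 1337 to 1856 CPM. Of 11 tested proximal tubule markers, 5 were lower and 1 was higher. The part of these markers in the Kl result was not tested. The genes whose deviations from the group means were ranked most like those of Kl over the 20 libraries, among 13455 candidates, were Srcin1 (Spearman's rho 0.96), Sfxn2 (0.93), Ttc38 (0.92), Slc34a1 (0.91) and Abcc6 (0.91), a description to which the libraries standing apart also contribute.

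Vdr, on chr15:97854425-97910630, is the nuclear receptor for active vitamin D. Normal kidneys had from 148 to 359 CPM with a median of 228 CPM, and tumors from 56.0 to 270 CPM with a median of 110 CPM. In 7 tumors Vdr was below every normal kidney, and tumors 4, 5 and 8 overlapped with normal kidneys. The mean fell from 245 ± 75.3 to 132 ± 67.2 CPM (SD, n = 10 per group, log2 fold change −0.90, SE 0.250, edgeR adjusted p = 0.0057). Among normal kidneys the SD of its log2 CPM was above that of 43.1% of the genes tested.

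Cyp27b1 (chr10:127048250-127053006) is the 1-alpha-hydroxylase that makes active vitamin D. Its level ran from 1.08 to 41.6 CPM, with a median of 10.0 CPM, in normal kidneys and from 3.16 to 40.7 CPM, with a median of 15.7 CPM, in tumors. The ranges nearly coincided, and normal kidneys alone spanned 38.5-fold. Means were 14.0 ± 13.7 and 18.3 ± 13.2 CPM (SD, n = 10 per group), a log2 fold change of 0.39 (95% interval −0.88 to 1.65, edgeR adjusted p = 0.626). Macrophages can also make this enzyme, and macrophage markers, of which 4 of 6 were higher by the edgeR test, summed to 243 to 1279 CPM in tumors and 102 to 385 CPM in normal kidneys. The part of macrophages in the Cyp27b1 level was not tested.

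Cyp24a1 (chr2:170482708-170497145) is the 24-hydroxylase that inactivates vitamin D, and a classic target of Vdr. Normal kidneys had from 74.0 to 1015 CPM with a median of 375 CPM, and tumors from 2.37 to 79.3 CPM with a median of 20.8 CPM. In 9 tumors Cyp24a1 was below every normal kidney, and tumor 5, at 79.3 CPM, was above only normal kidney 3, at 74.0 CPM. The mean fell 17.1-fold, from 474 ± 386 to 27.7 ± 23.5 CPM (SD, n = 10 per group, log2 fold change −4.10, SE 0.630, edgeR adjusted p = 1.70e-05). Unlike Slc34a1 and Kl, Cyp24a1 did not set normal kidneys 5, 7 and 8 apart, with 101 to 947 CPM in them and 74.0 to 1015 CPM in the others.

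The balance of the making and the inactivating enzyme was compared as a log2 ratio of Cyp27b1 to Cyp24a1. It was −5.41 ± 2.89 in normal kidneys and −0.47 ± 1.36 in tumors (SD, n = 10 per group), higher in tumors by 4.94 (two-sided permutation test, 100000 resamples, p = 4e-05), with 9 tumors above every normal kidney. Cyp24a1 had 4.55 to 911 counts for each count of Cyp27b1 in normal kidneys and 0.349 to 4.66 in tumors, without scaling for gene length. Tumor 7 is among the 9 only through the prior count of 2. It had 4.59 counts of Cyp24a1 for each count of Cyp27b1, against 4.55 in normal kidney 1.

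The 2 hydroxylases differed widely among the normal kidneys. Normal kidneys 2, 4 and 10 had 1.08 to 1.98 CPM of Cyp27b1 and 513 to 1015 CPM of Cyp24a1. Normal kidneys 1, 3, 6 and 9 had 14.5 to 24.8 CPM of Cyp27b1 and 74.0 to 238 CPM of Cyp24a1. Normal kidney 8 resembled the first of these, with 3.47 and 547 CPM, normal kidney 5 was low for both, with 5.50 and 101 CPM, and normal kidney 7 was high for both, with 41.6 and 947 CPM. Over all 10 the log2 levels of the pair had a Pearson's r of −0.464 (permutation p = 0.172, adjusted 0.187) and a Spearman's rho of −0.37 (permutation p = 0.295, adjusted 0.295) among 12 relations computed, and r was −0.26 without the 2 libraries farthest from the median, so no relation was shown. In tumors r was 0.507 (permutation p = 0.133, adjusted 0.16) and rho 0.394 (permutation p = 0.262, adjusted 0.286), with r of 0.212 without the 2 farthest.

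**Figure D4:**
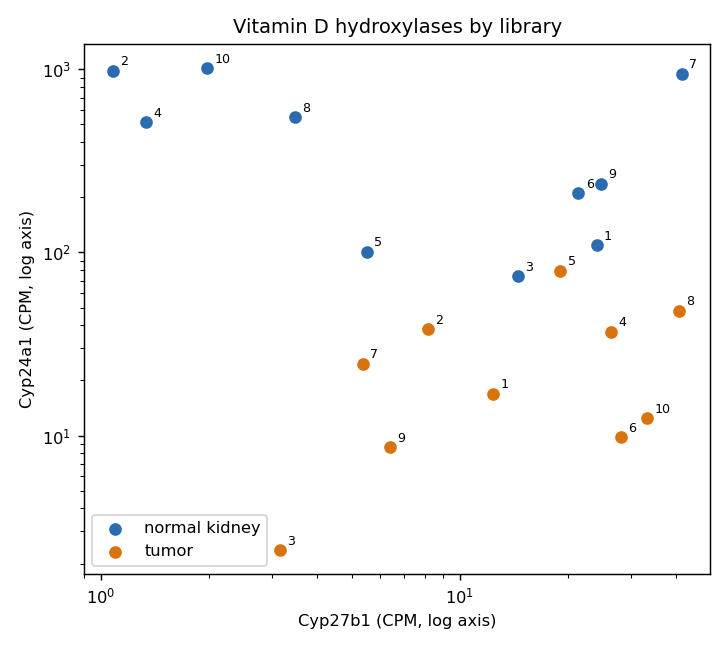
Cyp24a1 (vertical axis, CPM, log scale) against Cyp27b1 (horizontal axis, CPM, log scale) in normal kidneys (blue) and tumors (orange), each point 1 library with its replicate number. Normal kidneys 2, 4 and 10 lie at upper left, tumors lie below the normal kidneys except tumor 5, and Cyp27b1 covers about the same range in both groups.

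Vdr and Cyp24a1, receptor and target, were compared within each group. In normal kidneys Pearson's r was 0.633 (permutation p = 0.054, adjusted 0.072) and Spearman's rho 0.685 (permutation p = 0.0342, adjusted 0.0458), and in tumors r was 0.649 (permutation p = 0.0419, adjusted 0.0628) and rho 0.733 (permutation p = 0.02, adjusted 0.0342). Without the 2 libraries farthest from the median of Vdr, r was 0.363 in normal kidneys and 0.318 in tumors. Leaving them out also narrows the range of Vdr, so the lower r cannot show whether the relations rested on those libraries. The other 8 of the 12 relations involved Kl or Slc34a1, and no correlation within a group is given for them, since the libraries that stood apart lay together at the low end of the range.

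In order of level per length, normal kidneys had Slc34a1 at 449 CPM per kb, Cyp24a1 at 133, Pdzk1 at 79.0, Kl at 45.1, Vdr at 43.4, Slc20a2 at 13.2, Slc34a3 at 12.7, Slc20a1 at 7.36, Cyp27b1 at 5.43 and Slc34a2 at 1.75 CPM per kb. Among neighbours in this order, Slc34a1 and Cyp24a1, and Vdr and Slc20a2, differed by more than the larger of their SDs between kidneys. The other 7 pairs of neighbours did not, so the order of their means is not resolved by this rule. The rule does not use that both genes of a pair were read in the same library. Pdzk1 was above Kl per kb in every normal kidney. Slc34a1 was below Cyp24a1 in normal kidney 7 (29.9 against 266 CPM per kb) and in normal kidney 8 (66.2 against 154 CPM per kb). In tumors the level was 202 CPM per kb for Slc34a1, 104.7 for Pdzk1, 62.3 for Slc20a1, 23.3 for Vdr and 17.4 for Slc20a2, and from 0.615 to 7.79 CPM per kb for the remaining 5 genes. In normal kidneys the SD of log2 CPM of Slc34a3, Cyp27b1, Slc34a1 and Cyp24a1 was above that of 97.6% to 99.7% of the genes tested.

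Genes around the 10 were taken from 7 lists of the same pathways, 60 of 64 genes tested, of which 15 were higher, 20 lower and 25 not called, with a median log2 fold change of −0.22 against −0.021 over all genes tested. The shares called over all genes, 23.6% higher and 23.8% lower, are the background for this count and for the list counts that follow. Of 11 tested genes of FGF23 and PTH signalling, 2 were higher and 5 lower (median −0.61). Pth1r, the PTH receptor, fell from 342 ± 118 to 137 ± 50.8 CPM (SD, n = 10 per group, edgeR adjusted p = 0.00032), and Fgfr1, the receptor with which Klotho pairs for FGF23, from 73.3 ± 14.8 to 33.6 ± 34.2 CPM (SD, n = 10 per group, edgeR adjusted p = 0.0118). Tumors ran from 8.83 to 128 CPM of Fgfr1 and normal kidneys from 52.2 to 106 CPM, so the highest tumor lay above every normal kidney. Fgfr2 fell by 5.54 on the log2 scale, with every tumor below every normal kidney, and the feedback inhibitors Spry1 and Spry2 were lower (log2 fold changes −1.28 and −1.99). Dusp6, a phosphatase induced by ERK signalling, rose by 0.89 and Klb, the related coreceptor of other hormone-like FGFs, rose by 1.74 from 1.12 to 3.76 CPM.

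Of 5 genes listed under Klotho shedding and relatives of Klotho, 3 were higher and 1 lower (median 0.77). Adam10, a protease that sheds Klotho, was higher in every tumor than in any normal kidney, at 225 ± 19.9 against 84.6 ± 30.0 CPM (SD, n = 10 per group, log2 fold change 1.41, edgeR adjusted p = 5.62e-07), and Adam17, a second such protease, rose by 0.77. Lctl, a Klotho family member, rose by 2.99, again without overlap. The gene called lower, Gal3st1, fell by 2.69, and is a sulfotransferase of glycolipids, not a protease or a Klotho family member.

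Of 7 scaffold genes of the phosphate transporters, none was higher and 2 were lower (median −0.047). Slc9a3r1 (NHERF1), the main partner of Slc34a1, had 261 ± 54.6 CPM in tumors against 291 ± 75.6 CPM in normal kidneys (SD, n = 10 per group, log2 fold change −0.15, 95% interval −0.50 to 0.19, edgeR adjusted p = 0.462). Slc9a3r2 (NHERF2) and Shank2 were lower (log2 fold changes −1.62 and −4.25), both with every tumor below every normal kidney.

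Of 15 genes of vitamin D uptake and metabolism, 6 were higher and 1 lower (median 0.50). Gc, the vitamin D binding protein, rose from 564 ± 228 to 1770 ± 549 CPM (SD, n = 10 per group, log2 fold change 1.65, edgeR adjusted p = 4.45e-05), and Cyp2r1, a 25-hydroxylase, from 1.34 to 3.54 CPM (log2 fold change 1.39, edgeR adjusted p = 0.000574). Amn, part of the cubilin receptor, rose by 0.62, and Fdx1 and Fdxr, which pass electrons to the mitochondrial hydroxylases, by 0.50 and 0.52. Of the retinoid X receptors, the partners of Vdr on DNA, Rxrg rose by 1.36, from 1.57 to 4.04 CPM, and Rxrb fell by 0.31. The uptake receptors Lrp2 (megalin), at 2758 ± 1274 against 1868 ± 1155 CPM, and Cubn (cubilin), at 362 ± 174 against 493 ± 258 CPM in tumors and normal kidneys (SD, n = 10 per group), did not pass the edgeR test, with adjusted p of 0.275 and 0.369.

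Of 8 tested genes of distal calcium transport, which active vitamin D is known to regulate, 7 were lower and 1 was not called (median −5.57). Calb1, calbindin-D28k, had 384 ± 214 CPM in normal kidneys (SD, n = 10) and at most 2 reads in any tumor, at least 2558-fold lower against a floor of 3 counts in each tumor library. The calcium channel Trpv5 averaged 30.3 CPM in normal kidneys and 0.0557 CPM in tumors, the calcium receptor Casr 71.2 and 0.116 CPM, and S100g, calbindin-D9k, 472 and 9.25 CPM, each with every tumor below every normal kidney. These are genes of the loop of Henle and the distal tubule, whose marker lists were low in tumors as given above, and the part of those markers in this result was not tested. The calcium pump Atp2b1 had 85.1 ± 7.03 and 89.8 ± 27.0 CPM in tumors and normal kidneys (SD, n = 10 per group, edgeR adjusted p = 0.753).

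Of 9 tested genes of phosphate export, pyrophosphate and phosphatonin processing, 2 were higher and 3 lower (median −0.21). Xpr1, the phosphate exporter, had 111 ± 24.0 and 100.4 ± 26.4 CPM in tumors and normal kidneys (SD, n = 10 per group, log2 fold change 0.15, 95% interval −0.21 to 0.50, edgeR adjusted p = 0.508). Stc2, a stanniocalcin, rose by 1.44, and Galnt3, which glycosylates FGF23, by 0.91. Enpp1, which makes pyrophosphate, fell by 1.48 without overlap. Ank, which exports it, and Fam20c, a secretory kinase, were lower too (log2 fold changes −1.71 and −0.88). Of the 5 SLC17 transporters, first described as phosphate carriers and now known for organic anions, Slc17a4 and Slc17a5 rose by 2.39 and 1.23, Slc17a1 fell by 1.38 and the other two were not called.

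**Figure D5:**
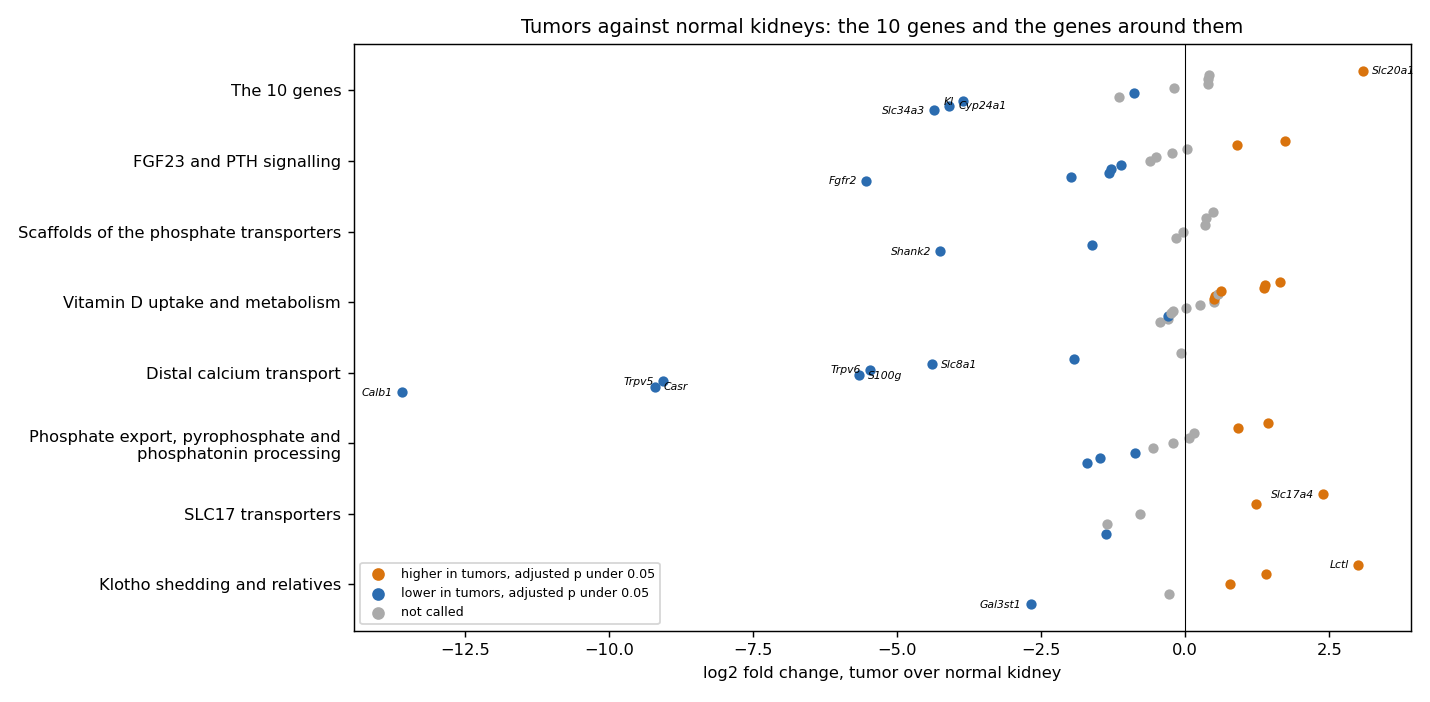
The log2 fold change of tumors over normal kidneys (horizontal axis) for the 10 genes and the tested genes of 7 surrounding lists (rows). Each point is 1 gene, orange where it was higher and blue where lower at an edgeR adjusted p under 0.05, and the fitted value of Calb1, with at most 2 reads in any tumor, depends on the prior count. The distal calcium genes reach farthest to the left and Slc20a1 is farthest to the right.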

How the data were processed

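RNA was made with Trizol from flash frozen, pulverized tissue, enriched for poly A RNA and sequenced as paired ends by a service company. The authors deposited raw read counts per gene, 1 column for each of 20 libraries, with gene length and coordinates. The submitters' processing notes name mm10, and the aligner, counter and strand setting are not given in the sources used here.

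Counts were analysed with edgeR 4.0.16 in R 4.3.3 by TMM scaling, filterByExpr with a count minimum of 10 and the quasi-likelihood test of 10 tumors against 10 normal kidneys without covariate, adjusted by Benjamini-Hochberg over 15354 genes, with calls at 0.05. Libraries held 14737516 to 26679704 counts before scaling. CPM use these totals times the TMM factors, and log2 CPM a prior count of 2. Ratios, shares and correlations were tested by permutation with 100000 resamples in scipy 1.17.1. Alternatives used DESeq2 1.42.0 size factors and test, limma 3.58.1 voom with quality weights, upper quartile or total scaling, no filter, a replicate block and libraries left out. No 2 libraries of a group agreed within counting noise (in 90 pairs, chi-square divided by its degrees of freedom was at least 12.8). The tests were tested on simulated data. Each library is labelled as a separate tumor or normal kidney sample.

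The 10 genes and the lists were chosen with earlier results of these data known. Named from each list were up to 4 called genes in each direction by the size of the log2 fold change. Fgfr1, Fdx1, Fdxr, Lrp2, Cubn, Slc9a3r1, Atp2b1 and Xpr1 fall outside this rule and were chosen after their values were seen. Likeness to Kl and Slc34a1 was ranked over protein-coding genes averaging 1 CPM or more in either group, and 1 gene of that ranking is not reported here. Motif positions count from the RefSeq start, and RefSeq promoters and the counted genes share the build GRCm38. No gene was left out of the 10.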

Additional observations from a re-analysis of the deposited data

Results flagged for a closer look

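Of 26 groups of values checked, each of a gene or ratio in the 10 tumors or 10 normal kidneys, 3 held 1 library farther from the others than Dixon's 95% critical value for 10 samples. The check marks about 5% of groups by chance. Tumor 7 had a log2 CPM of 6.18 for Pdzk1, where the other tumors had 7.84 to 9.10, and of 6.51 for Slc20a1, where the others had 7.82 to 8.91. Tumor 7 is also the tumor with fibroblast markers at 7928 CPM and proximal tubule markers at 1209 CPM, and the part of these in the low values was not tested. Normal kidney 7 had a log2 ratio of Slc34a1 to Slc34a3 of 8.48, where the other normal kidneys had 5.62 to 6.74.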

How the results depend on the processing

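Slc20a1, Slc34a3, Kl, Vdr and Cyp24a1 kept their direction and their call in all 29 alternatives, with log2 fold changes of 2.96 to 3.79, −4.82 to −4.18, −4.27 to −3.75, −1.16 to −0.81 and −4.43 to −3.90. The count of genes called higher, 1 in the report, was 3 by limma-voom with quality weights (with Slc20a2 and Cyp27b1 added), 2 without normal kidneys 5, 7 and 8, and 1 to 2 when 1 library was left out, with 2 reached without normal kidney 7. The Slc34a1 share differed by −17.5 points (permutation p = 0.0682) without normal kidney 9 and tumor 7, and by −30.8 to −17.3 points over its 24 alternatives. Slc34a2, never called, turned positive at 0.17 by limma-voom, 0.59 without normal kidneys 5, 7 and 8, and 0.014 without normal kidney 7, with −0.41 to 0.014 over single libraries left out. The cause was not tested. The labels do not say that a replicate number marks a mouse. Of 10 same-numbered pairs, 9 deviated together with a correlation over 0.1 (−0.14 to 0.38), and 8 of 10 tumors matched their own number best, which is a hint from the data and not the design. With the replicate block 2 of the 10 genes were called higher, Slc20a2 joining Slc20a1 (0.54, edgeR adjusted p = 0.0275), and Slc34a1 was called lower (−1.03, 0.01). Upper quartile and total scaling moved the median of all genes from −0.021 to −0.14, and the higher share of called genes from 49.8% to 39.2% and 38.5%. Depth limits Slc34a3 in tumors, where 1 library had no read.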
